A study of Homo sapiens with 44 samples.

Results

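The genes described here encode the subunits of potassium channels, voltage-gated sodium channels and voltage-gated calcium channels. They were taken by name from the count tables: every row whose symbol began with KCN or CACN, or with SCN followed by a number and the letter A or B. The rule found 137 of the 19923 genes listed. Of these, 71 had a mean input level of at least 1 CPM (the count scaled to the total of its library) in Kelly cells at 1 day, and 73 did so in Kelly cells at 6 days, in NGP cells and in the xenograft. At least 1 CPM was reached in all 4 experiments by 53 genes, in at least 1 by 92 and in none by 45, and 5 genes had no count in any of the 22 input libraries. The genes nearest to the minimum in Kelly cells at 1 day were KCNA3 at 0.938 CPM, just under it, and KCNK7 at 1.18 CPM, just over it. In Kelly cells at 6 days they were KCND2 at 0.992 and CACNB4 at 1.07 CPM, in NGP KCNC2 at 0.887 and KCND3 at 1.06 CPM, and in the xenograft KCNF1 at 0.785 and KCNH8 at 1.05 CPM.

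The libraries came from Kelly and NGP, established human neuroblastoma cell lines, both labelled MYCN-amplified and wild type. Cultured cells received 8 µM STM2457, an inhibitor of the RNA methyltransferase METTL3, or DMSO, for 1 day or 6 days in Kelly and for 6 days in NGP. Kelly cells grown under the skin of nude mice formed the xenograft, whose hosts received STM2457 at 50 mg/kg or vehicle into the peritoneum each day for 14 days. The vehicle group is called DMSO, as its labels call it. Every condition was sequenced before and after pulldown of its fragmented poly(A) RNA with an antibody against N6-methyladenosine (m6A), as input libraries and as what are called RIP libraries below, with 3 libraries a group in culture and 2 in the xenograft. Nothing in the labels says whether replicates were separate cultures, so the p-values measure the spread between these libraries. Kelly and NGP are 1 cell line each, so a difference between them is a difference between 2 lines.

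Voltage-gated channels open when the membrane depolarises: sodium and calcium channels carry inward current, and potassium channels carry the outward current that ends an action potential. Inward rectifier and two-pore-domain potassium channels hold the resting potential, and auxiliary subunits set how many pores reach the surface and how fast they gate. In sympathetic neuroblasts, from which neuroblastoma arises, the set of channels shifts as cells leave the cycle and become excitable. METTL3 places m6A on mRNA, mostly within a short consensus called DRACH, in long exons and near stop codons, and the mark is known to speed the decay of many transcripts.

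Each Kelly input at 1 day had between 24.1 and 26.6 M assigned fragments, with a range of 5.765 to 31.5 M at 6 days, of 5.49 to 11.6 M in NGP and of 2.145 to 7.27 M in the xenograft. The 137 genes took between 0.187% and 0.253% of the counts of an input library. Of 9 neuroblastoma markers, all reached 1 CPM in every group except TH in the NGP DMSO group. Of 17 genes of stroma and blood, between 3 and 7 reached 1 CPM, their summed level ran from 86.3 to 200.01 CPM over all input libraries, and HBB was at 0 in every group except the treated xenograft. That list's sum was 151 to 158 CPM with DMSO and 112 to 137 CPM with STM2457 in Kelly cells at 6 days, and its part in the results there was not tested. In bulk RNA, fewer cells with a transcript and less transcript per cell cannot be told apart. The headers place each experiment in its own folder, so experiment and folder cannot be told apart, and the Kelly 1 day RIP libraries lie in another folder than their inputs. No result below is set across experiments except where a fit with both is named.

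The voltage-gated potassium channel pores formed the largest class, with 40 genes, and held the largest summed input level in each of the 4 experiments. The sums here are means over all inputs of an experiment, DMSO and STM2457 together. The genes of this class summed to 708 CPM in Kelly cells at 1 day, 963 CPM at 6 days, 1240.3 CPM in NGP and 1095 CPM in the xenograft. The 10 sodium channel alpha subunits summed to 163, 98.3, 130 and 79.6 CPM in the same order, and the 10 calcium channel alpha1 subunits to 203, 255, 299 and 227 CPM. The remaining classes were 16 inward rectifiers, 15 two-pore-domain channels, 8 calcium- or sodium-activated potassium channels, 18 potassium channel auxiliary genes, 4 sodium channel beta subunits, and 4 alpha2delta, 4 beta and 8 gamma subunits of calcium channels. The inward rectifiers summed to 169, 141, 50.6 and 145 CPM.

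Levels per length differed widely. In Kelly cells at 1 day the highest were CACNG4 at 35.4 ± 1.16 RPKM (SD, n = 3), which encodes a gamma subunit that also accompanies AMPA receptors, and KCNH2 at 33.6 ± 2.77 RPKM (SD, n = 3), which encodes the hERG potassium channel. The ranges of this pair overlapped. KCNK3, the acid-sensitive leak channel TASK-1, and CACNA1B, the pore of the N-type calcium channel, followed at 19.0 ± 0.75 and 18.0 ± 0.27 RPKM (SD, n = 3) and overlapped as well. At 6 days KCNH2 led at 32.5 ± 0.59 RPKM (SD, n = 3), above CACNA2D2 at 25.0 ± 0.87 RPKM (SD, n = 3) with no overlap. CACNA1B stood at 21.3 RPKM. In NGP the order opened with KCNG1 at 65.2 ± 2.2 RPKM (SD, n = 3), and KCNH2 stood at 28.9 ± 1.06 RPKM (SD, n = 3). KCNG1 encodes an electrically silent subunit that joins other potassium channel pores. In the xenograft CACNG4 stood at 37.4 ± 0.49 RPKM (SD, n = 2), above KCNH2 at 26.6 ± 1.9 RPKM (SD, n = 2) with no overlap.

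**Figure D1:**
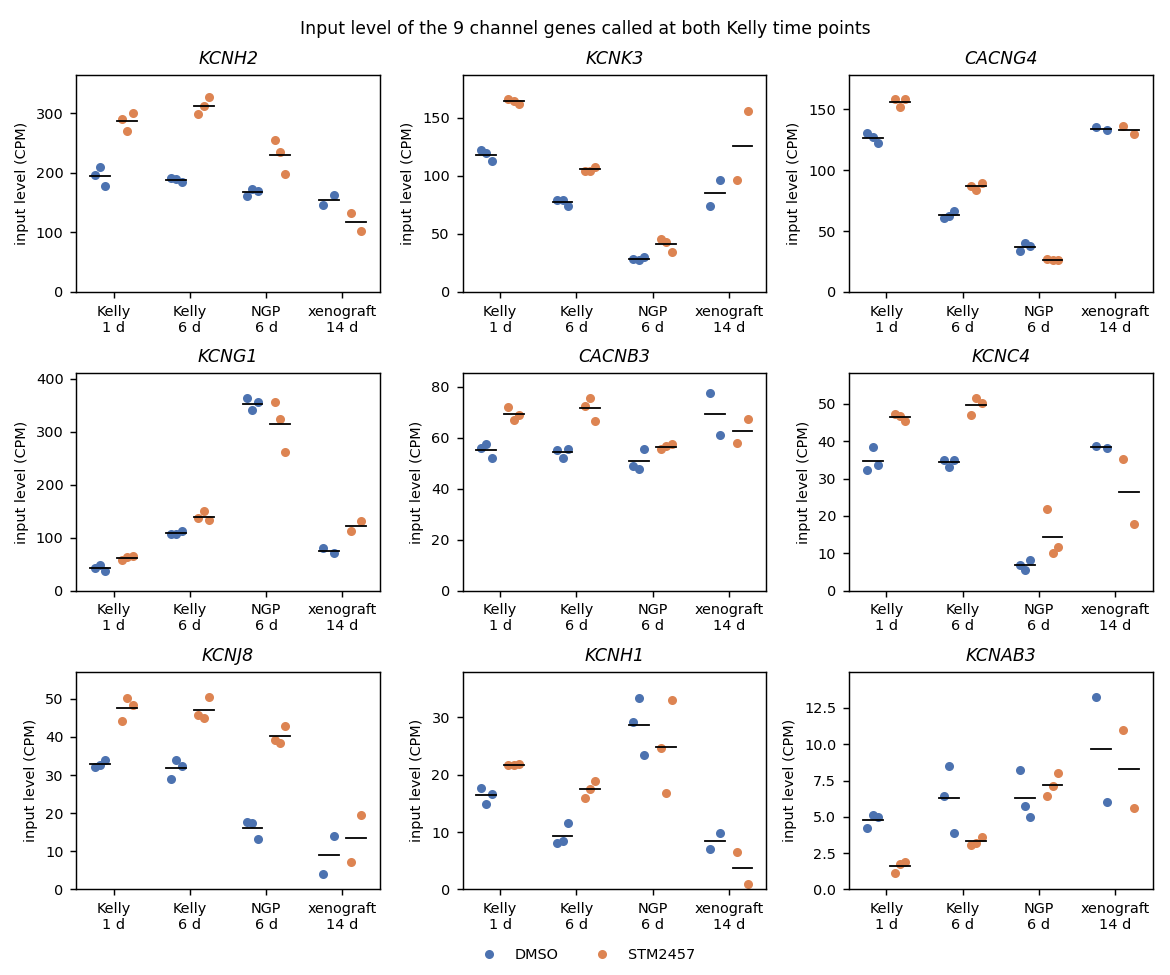
Input level in CPM of the genes called in the same direction in Kelly cells at 1 and at 6 days, drawn for each library (points) with the group mean (bars), by experiment and treatment. In Kelly cells the treated libraries lie above the DMSO libraries for the 8 genes that rose and below them for KCNAB3.

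Treatment of Kelly cells for 1 day raised 12 of the 71 genes and lowered 4 at an adjusted p under 0.05 (edgeR's quasi-likelihood test, Benjamini-Hochberg adjustment over all genes tested), where 10.1% of all genes of at least 1 CPM rose and 8.56% fell. After 6 days 14 of 73 rose and 10 fell, where 12.1% and 14.8% of all such genes did. At both times 9 genes were called, 8 of them higher in both and KCNAB3 lower in both. The share of all genes called at both times is not given here, so the 9 are not set apart from other genes. The median log2 change of the channel genes was 0.09 at 1 day and 0.03 at 6 days, beside 0.01 and -0.001 for all genes. A fit of all 22 inputs with 1 shared estimate of the spread left 1 call at 1 day, KCNH2, and 3 at 6 days, KCNH2, SCN8A and CACNG4. The spread between replicates, as the biological coefficient of variation, was 0.0725 and 0.0913 in the Kelly inputs, 0.240 in NGP and 0.448 in the xenograft. Without treated replicate 1 the 1 day count was 10, and without treated replicate 2 the 6 day count was 15. The treated and DMSO libraries did not overlap for 29 of 71 genes at 1 day and for 35 of 73 at 6 days, where 36.1% and 44.5% of all genes of at least 1 CPM did not overlap and 18.6% and 27% were called.

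Of the voltage-gated potassium channel pore subunits, 5 of 23 tested rose at 1 day and 7 of 22 at 6 days, with 1 and 2 falls. KCNH2 (chr7:150944961-150978321, minus strand, GRCh38), the hERG channel that repolarises the heart and is also known from neuroblastoma cells, was measured at 196, 210.4 and 178 CPM with DMSO and 291, 271 and 301 CPM with STM2457 at 1 day. At 6 days the libraries held 191, 189.5 and 185 CPM with DMSO and 298, 312 and 327 CPM with STM2457. At each time every treated library lay above every DMSO library. The log2 change was 0.54 (SE 0.06, adjusted p = 1.6e-05) at 1 day and 0.62 (SE 0.06, adjusted p = 1.3e-06) at 6 days. In NGP the inputs stood at 161, 173 and 169 CPM with DMSO and 255, 236 and 197 CPM with STM2457, again without overlap, but the change of 0.38 (SE 0.15, adjusted p = 0.18) was not called. In the xenograft the order was the other way, with 146 and 162 CPM with vehicle and 132 and 102 CPM with STM2457, and the change of -0.27 (SE 0.22, adjusted p = 0.79) was not called.

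KCNG1 (chr20:51003656-51023107, minus strand) held 43.4, 48.5 and 36.2 CPM with DMSO and 58.6, 63.9 and 64.9 CPM with STM2457 at 1 day. At 6 days it held 108, 106 and 112 CPM with DMSO and 136, 149.9 and 133 CPM with STM2457. The treated libraries were higher without overlap at both times, by 0.52 (SE 0.09, adjusted p = 0.00076) and 0.26 (SE 0.07, adjusted p = 0.0078) on the log2 scale, and the call at 6 days was lost without treated replicate 2 (adjusted p = 0.060). KCNC4 (chr1:110211343-110283100, plus strand), a pore subunit of fast delayed rectifier and A-type currents, stood at 32.3, 38.5 and 33.6 CPM with DMSO and 47.2, 46.6 and 45.5 CPM with STM2457 at 1 day, and at 34.8, 33.2 and 35.1 CPM with DMSO and 47.1, 51.5 and 50.1 CPM with STM2457 at 6 days. Its groups did not overlap at either time, and its log2 changes were 0.39 (SE 0.08, adjusted p = 0.0027) and 0.42 (SE 0.08, adjusted p = 0.0014). In NGP KCNC4 was lower in level, at 6.79, 5.55 and 8.26 CPM with DMSO and 21.7, 10.0 and 11.6 CPM with STM2457, where the change of 1.00 (SE 0.37, adjusted p = 0.14) was not called. KCNH1 (chr1:210676823-211134165, minus strand), the ether-a-go-go channel often found in tumour cells, held 17.7, 14.95 and 16.7 CPM with DMSO and 21.6, 21.6 and 21.9 CPM with STM2457 at 1 day, and 8.11, 8.45 and 11.7 CPM with DMSO and 16.0, 17.5 and 18.9 CPM with STM2457 at 6 days. All treated libraries were higher, with log2 changes of 0.38 (SE 0.10, adjusted p = 0.014) and 0.77 (SE 0.15, adjusted p = 0.0015). The 1 day call of KCNH1 was lost without DMSO replicate 2 (adjusted p = 0.055), without treated replicate 1 (adjusted p = 0.053) or without treated replicate 3 (adjusted p = 0.050). KCNH1 shares exon sequence on its own strand with AC092017.3 and AL590132.1, so its counts may leave out fragments of the shared stretch.

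Other pore subunits were called at 1 time point. KCND1, a subunit of A-type channels, rose by 0.48 (SE 0.14) at 1 day, and KCNH4 fell, with a log2 change of -0.26 (SE 0.07). At 6 days KCNF1, another electrically silent subunit, rose from 1.24, 0.626 and 0.972 to 2.96, 3.11 and 1.73 CPM. The groups of KCNF1 did not overlap, and its log2 change of 1.44 (SE 0.37, adjusted p = 0.0087) was lost without treated replicate 2 (adjusted p = 0.061). KCNQ5 (chr6:72621792-73198851, plus strand), which forms M-type channels with KCNQ3, held 7.86, 6.42 and 8.66 CPM with DMSO and 10.2, 14.6 and 12.5 CPM with STM2457 at 6 days. Its change of 0.59 (SE 0.18, adjusted p = 0.021) was lost without DMSO replicate 1 (adjusted p = 0.053), without DMSO replicate 2 (adjusted p = 0.10) or without treated replicate 2 (adjusted p = 0.16). In NGP KCNQ5 stood at 23.7, 20.2 and 22.7 CPM with DMSO and 40.8, 40.4 and 32.8 CPM with STM2457 without overlap, and its change of 0.70 (SE 0.22, adjusted p = 0.072) was not called. KCNH6 fell at 6 days with a log2 change of -1.06 (SE 0.16, adjusted p = 0.00017). KCNH8 fell as well, from 3.48, 2.19 and 2.92 to 1.81, 1.40 and 0.694 CPM, without overlap. Its change of -1.08 (SE 0.35, adjusted p = 0.031) was lost without DMSO replicate 1 (adjusted p = 0.14), without DMSO replicate 3 (adjusted p = 0.089), without treated replicate 2 (adjusted p = 0.11) or without treated replicate 3 (adjusted p = 0.055).

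Among the channels that set the resting potential, KCNK3 and KCNJ8 rose at both times. KCNK3 (chr2:26692690-26733420, plus strand) held 122, 119.5 and 113 CPM with DMSO and 166, 164 and 162 CPM with STM2457 at 1 day, and 79.0, 78.6 and 73.9 CPM with DMSO and 104, 104 and 108 CPM with STM2457 at 6 days. The groups were apart at both times, with log2 changes of 0.45 (SE 0.05, adjusted p = 1.6e-05) and 0.34 (SE 0.06, adjusted p = 0.00088). KCNJ8 (chr12:21764955-21775600, minus strand), the pore of an ATP-sensitive potassium channel, stood at 32.2, 32.6 and 34.1 CPM with DMSO and 44.1, 50.2 and 48.5 CPM with STM2457 at 1 day. At 6 days it stood at 29.0, 34.0 and 32.3 CPM with DMSO and 45.8, 44.9 and 50.5 CPM with STM2457, and in NGP at 17.6, 17.5 and 13.2 CPM with DMSO and 39.3, 38.4 and 42.8 CPM with STM2457. KCNJ8 was the 1 gene of the set that rose in all 3 culture experiments, by 0.50 (SE 0.08, adjusted p = 0.00023), 0.45 (SE 0.09, adjusted p = 0.0018) and 1.25 (SE 0.23, adjusted p = 0.0019), with no overlap between groups in any of them. In the xenograft its libraries overlapped, at 3.95 and 13.9 CPM with vehicle and 7.21 and 19.6 CPM with STM2457.

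KCNJ12, a strong inward rectifier, rose by 0.21 (SE 0.06, adjusted p = 0.017) at 1 day, a call lost without treated replicate 1 (adjusted p = 0.087) or without treated replicate 3 (adjusted p = 0.079). KCNJ4, another strong inward rectifier, fell at 6 days with a log2 change of -0.50 (SE 0.16, adjusted p = 0.032), lost by DESeq2 (adjusted p = 0.063), without DMSO replicate 1 (adjusted p = 0.067), without DMSO replicate 3 (adjusted p = 0.15), without treated replicate 1 (adjusted p = 0.15) or without treated replicate 2 (adjusted p = 0.077). The two-pore-domain channel KCNK15 fell at 6 days with a change of -1.24 (SE 0.44, adjusted p = 0.046) at about 1 CPM. That call was lost by DESeq2 (adjusted p = 0.087), without a filter on low counts (adjusted p = 0.052), without DMSO replicate 1 (adjusted p = 0.31), without DMSO replicate 3 (adjusted p = 0.065), without treated replicate 1 (adjusted p = 0.17), without treated replicate 2 (adjusted p = 0.081) or without treated replicate 3 (adjusted p = 0.060), and KCNK15 overlaps RIMS4 on the other strand. Of the calcium-activated channels, KCNN1 (chr19:17951293-18000080, plus strand), a small-conductance channel, held 10.7, 12.1 and 11.6 CPM with DMSO and 16.9, 17.2 and 15.4 CPM with STM2457 at 1 day and rose by 0.50 (SE 0.11, adjusted p = 0.0049). At 6 days its libraries overlapped at 35.8, 35.0 and 32.5 CPM with DMSO and 29.8, 30.6 and 36.3 CPM with STM2457. KCNN3, of the same family, fell at 6 days, with a log2 change of -1.15 (SE 0.35, adjusted p = 0.022).

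The auxiliary gene KCNAB3 (chr17:7921859-7929803, minus strand) fell at both times. It encodes a beta subunit of Shaker-type potassium channels. At 1 day it held 4.25, 5.14 and 4.97 CPM with DMSO and 1.14, 1.78 and 1.91 CPM with STM2457, and at 6 days 6.45, 8.53 and 3.89 CPM with DMSO and 3.07, 3.21 and 3.64 CPM with STM2457. Every treated library lay below every DMSO library at each time. The log2 changes were -1.60 (SE 0.24, adjusted p = 0.00019) and -1.06 (SE 0.27, adjusted p = 0.0076), and the second was lost without DMSO replicate 2 (adjusted p = 0.068). The gene overlaps AC104581.2 on the same strand, and its counts may be split. In NGP the groups overlapped at 8.23, 5.73 and 4.97 CPM with DMSO and 6.46, 7.11 and 8.04 CPM with STM2457. KCNIP4, which encodes a calcium sensor of A-type channels, fell at 1 day from 9.31, 14.4 and 10.9 to 7.99, 8.73 and 6.77 CPM. This change of -0.58 (SE 0.16, adjusted p = 0.019) was lost without DMSO replicate 2 (adjusted p = 0.11), without treated replicate 1 (adjusted p = 0.063) or without treated replicate 3 (adjusted p = 0.090). KCNIP2, of the same family and the auxiliary gene with the highest level per length, was not called in any experiment and held 13.1, 13.4 and 11.4 CPM with DMSO and 12.03, 10.9 and 11.97 CPM with STM2457 at 6 days.

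Among sodium channels, SCN3A, a pore subunit typical of developing neurons, rose by 0.35 (SE 0.12, adjusted p = 0.044) at 1 day. SCN8A (chr12:51590266-51812864, plus strand), the pore subunit of mature axon initial segments, held 41.5, 36.1 and 46.3 CPM with DMSO and 64.0, 61.6 and 67.6 CPM with STM2457 at 6 days. Its groups were apart and it rose by 0.53 (SE 0.09, adjusted p = 0.00057), while at 1 day 70.3, 74.1 and 77.5 CPM stood beside 81.4, 77.7 and 83.7 CPM and the change of 0.10 (SE 0.06) was not called. SCN4A (chr17:63938554-63972918, minus strand), the pore subunit of skeletal muscle, fell at 6 days from 5.38, 5.71 and 5.10 to 2.82, 1.68 and 1.21 CPM, with no overlap and a log2 change of -1.48 (SE 0.29, adjusted p = 0.0011). No sodium channel beta subunit was called in any input comparison, and SCN3B, the most abundant of them per length, held 6.54, 5.95 and 9.15 CPM with DMSO and 8.89, 6.86 and 8.15 CPM with STM2457 at 6 days.

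The calcium channel pores fell where they were called. CACNA1B (chr9:137877782-138124624, plus strand) held 180.0, 179 and 175 CPM with DMSO and 159, 147 and 159 CPM with STM2457 at 1 day, a change of -0.23 (SE 0.05, adjusted p = 0.0048). At 6 days it held 213, 212 and 208 CPM with DMSO and 209, 221 and 227 CPM with STM2457, which overlapped. CACNA1G, the pore of a low-voltage-activated T-type channel, fell at 6 days from 4.88, 2.82 and 3.89 to 1.36, 1.81 and 1.04 CPM, without overlap. Its log2 change was -1.47 (SE 0.32, adjusted p = 0.0027), and CACNA1F, the L-type pore known from the retina, changed by -1.24 (SE 0.35, adjusted p = 0.016). The calls among cytoplasmic beta subunits were rises. CACNB3 (chr12:48813794-48828941, plus strand), which brings pores to the membrane, stood at 55.9, 57.4 and 52.1 CPM with DMSO and 72.1, 66.8 and 68.9 CPM with STM2457 at 1 day, and at 55.3, 51.9 and 55.4 CPM with DMSO and 72.3, 75.6 and 66.6 CPM with STM2457 at 6 days. All treated libraries were higher at each time, by 0.31 (SE 0.07, adjusted p = 0.0043) and 0.30 (SE 0.08, adjusted p = 0.0083), and the second call was lost without DMSO replicate 2 (adjusted p = 0.052) or without treated replicate 2 (adjusted p = 0.055). CACNB1 rose by 0.22 (SE 0.07, adjusted p = 0.035) at 6 days, lost without DMSO replicate 1 (adjusted p = 0.10), without DMSO replicate 2 (adjusted p = 0.095), without DMSO replicate 3 (adjusted p = 0.095) or without treated replicate 2 (adjusted p = 0.11).

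Of the gamma subunits, CACNG4 (chr17:66964707-67033398, plus strand) held 131, 127 and 123 CPM with DMSO and 158, 152 and 159 CPM with STM2457 at 1 day. At 6 days it held 60.3, 62.4 and 66.1 CPM with DMSO and 86.7, 84.0 and 89.2 CPM with STM2457. The groups were apart at both times, with changes of 0.28 (SE 0.05, adjusted p = 0.0013) and 0.35 (SE 0.07, adjusted p = 0.0015). In NGP all treated libraries lay below the DMSO libraries, with 26.7, 25.9 and 25.9 CPM against 33.6, 40.1 and 37.4 CPM, and the change of -0.57 (SE 0.21, adjusted p = 0.14) was not called. CACNG8, which like CACNG4 belongs to the AMPA receptor regulators, rose by 0.79 (SE 0.11, adjusted p = 8e-05) at 6 days. CACNG5 held 5.13, 5.71 and 6.40 CPM with DMSO and 2.65, 2.41 and 2.60 CPM with STM2457 at 6 days and fell, with a log2 change of -1.28 (SE 0.23, adjusted p = 0.00071). At 1 day its groups overlapped. No alpha2delta subunit was called in any input comparison.

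**Figure D2:**
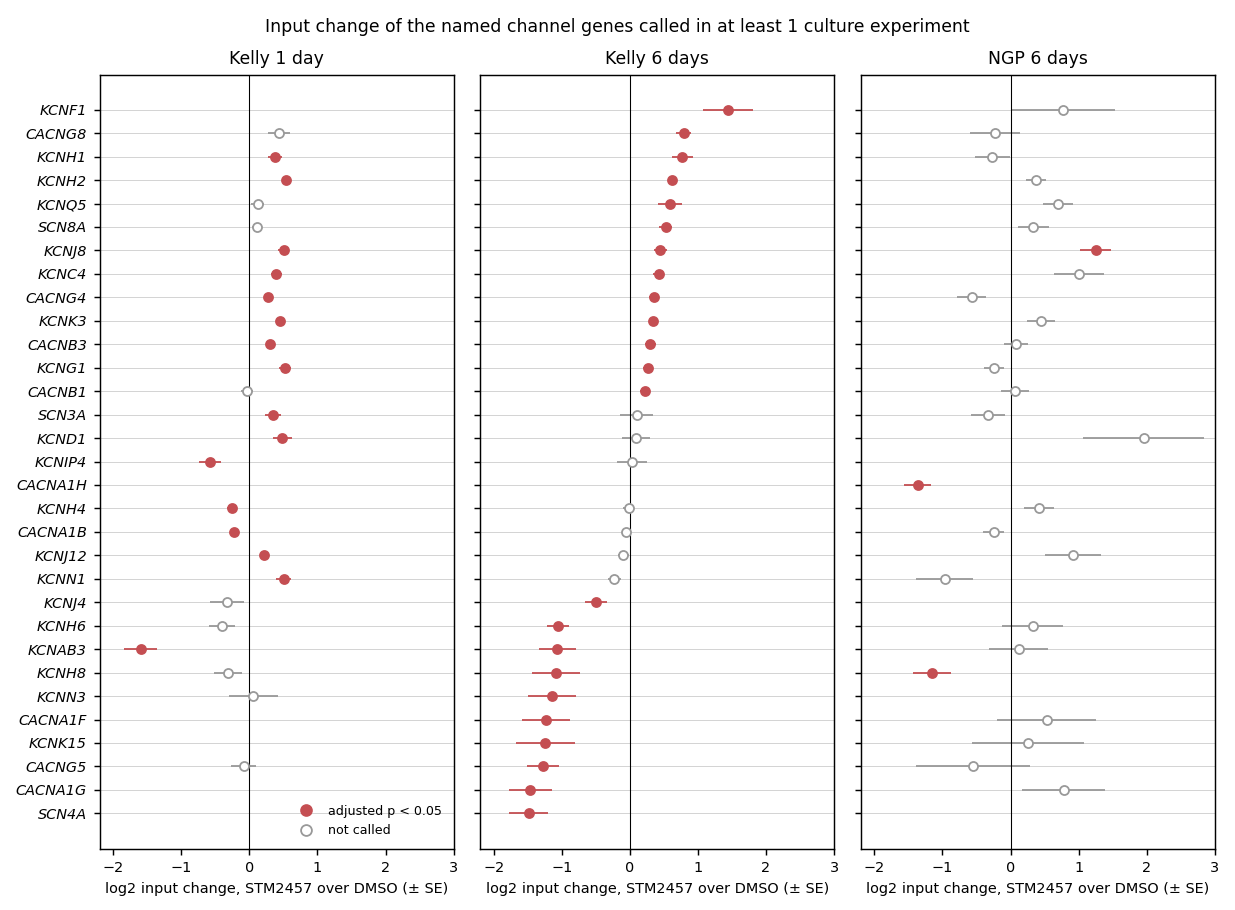
Log2 change of input level with STM2457 over DMSO (points, with SE as bars) for the named channel genes called in Kelly at 1 day, Kelly at 6 days or NGP at 6 days (panels), filled where the adjusted p is under 0.05. A gene with no point in a panel was under 1 CPM or was not tested there, and KCNJ8 is the gene filled in all 3 panels.

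Whether the Kelly response differed between 1 and 6 days was tested in 1 fit of both experiments, which shares no library between the 2 changes. Of 77 genes tested, 4 differed, where 8.95% of all genes of at least 1 CPM did. CACNG5 and KCNN1 had the lower change at 6 days, by -1.18 (SE 0.29, adjusted p = 0.011) and -0.71 (SE 0.14, adjusted p = 0.0022), and SCN8A the higher, by 0.44 (SE 0.11, adjusted p = 0.014). KCNJ14, an inward rectifier, had a difference of 2.80 (SE 0.78, adjusted p = 0.026), which rests on 2, 2 and 1 counts in the 6 day DMSO libraries and was lost without Kelly 1 day DMSO replicate 2 (adjusted p = 0.064), without Kelly 1 day treated replicate 2 (adjusted p = 0.059) or without Kelly 6 days DMSO replicate 3 (adjusted p = 0.071). Between Kelly and NGP cells at 6 days 2 of 85 genes differed, beside 1.38% of all such genes. CACNG4 changed by 0.94 (SE 0.17, adjusted p = 0.0060) more in Kelly than in NGP. The other was KCNIP4, whose NGP DMSO libraries hold 1 count in all, so that its fitted difference depends on the prior count. That call was lost without Kelly 6 days DMSO replicate 2 (adjusted p = 0.061), without Kelly 6 days treated replicate 2 (adjusted p = 0.064) or without NGP 6 days DMSO replicate 3 (adjusted p = 0.072).

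In NGP cells 1 of 71 genes rose with STM2457 and 2 fell, where 2.09% and 2.18% of all genes of at least 1 CPM did. Besides KCNJ8, which rose, the calls were CACNA1H and KCNH8. CACNA1H (chr16:1153106-1221771, plus strand), a T-type calcium channel pore, held 60.4, 66.1 and 67.4 CPM with DMSO and 28.8, 30.1 and 20.6 CPM with STM2457. The groups were far apart, and the log2 change was -1.36 (SE 0.20, adjusted p = 0.00018). Part of its exon sequence overlaps TPSG1 on the other strand. In Kelly cells at 6 days the DMSO libraries held CACNA1H at 0, 0 and 0.405 CPM. KCNH8 stood at 25.1, 27.9 and 27.0 CPM with DMSO and 16.2, 8.02 and 13.1 CPM with STM2457. It fell, with a log2 change of -1.15 (SE 0.28, adjusted p = 0.019), a call lost without DMSO replicate 3 (adjusted p = 0.071), without treated replicate 2 (adjusted p = 0.058) or without treated replicate 3 (adjusted p = 0.052). The libraries of the arms did not overlap for 30 of 71 genes, and 25 had an unadjusted p under 0.05. Of all such genes 23.7% did not overlap, 17.6% had an unadjusted p under 0.05 and 4.26% were called. The fit of all 22 inputs with 1 shared spread called 8 genes up and 4 down in NGP. The share of all genes called in that fit is not given here. The summed level of 8 mesenchymal state markers ran from 1068 to 1467 CPM with DMSO and from 1318 to 2028 CPM with STM2457 in NGP, most of it TWIST1. Of that list 2 of 6 tested rose, VIM from a mean of 35.7 to 175 CPM (log2 change 2.22) and FN1 from 28.6 to 58.8 CPM (0.97). Of the stroma and blood genes COL3A1 rose from 15.9 to 42.6 CPM (1.34). The part of these genes in the NGP values was not tested.

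In the xenograft edgeR called 0 of 61 genes, and 0% of all genes. DESeq2 called 0 as well, and 4 of the 61 passed an unadjusted p of 0.05, as 8.54% of all genes did. With STM2457 and vehicle the libraries did not overlap for 30 of 61 genes and for 42.0% of all genes. The fit of all 22 inputs called 5 genes up and 7 down in the xenograft, where its share of all genes called is not given here. Leaving out treated replicate 1 gave 12 calls and leaving out treated replicate 2 gave 3, with the lone treated library assumed to vary like the vehicle group. With 2 libraries a group and the spread given above, the lack of calls does not show that these genes did not change.

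The RIP libraries were then compared with their inputs. The log2 ratio of RIP over input is given on a scale where TMM factors hold the typical gene near 0, so a shift shared by most genes is not seen on it. With DMSO, 31 of 71 channel genes in Kelly cells at 1 day were at least 2-fold higher in RIP than in input and 6 at least 2-fold lower (edgeR, adjusted p under 0.05), where 28.2% and 31.3% of all genes of at least 1 CPM were. At 6 days the counts were 35 and 4 of 73, beside 26.4% and 28.8%, and in NGP they were 20 and 8 of 72, beside 21.1% and 20.2%. The NGP DMSO RIP libraries were not alike: channel genes took 0.320% of the counts in replicate 1, beside 0.212% and 0.189% in the others. The median log2 ratio of the channel genes was 1.10 at 1 day and 1.34 at 6 days in Kelly, 0.13 in NGP and 0.98 in the xenograft. For all genes it was -0.18, -0.25, 0.03 and -0.23. With an offset for the GC content of transcripts, chosen after the data had been seen, the channel medians became 1.23, 1.55, 0.66 and 1.71 and those of all genes 0.01, 0.07, -0.03 and 0.58. In NGP 19 channel genes were then called higher and 4 lower, beside 17.0% and 17.7% of all genes, so the channel median in NGP rests on that choice. In the xenograft 1 of 71 was higher and 0 lower, beside 1.66% and 2.22% of all genes, while 8 were called by DESeq2 and 10 passed an unadjusted p of 0.05. Over all genes tested there, which include 12226 of at least 1 CPM, 3015 passed that unadjusted p. Scaled on 13 mitochondrial mRNAs in place of TMM, the ratio of the median gene moved by 1.63 and 4.92 in Kelly at 1 and 6 days, by 0.77 in NGP and by 2.19 in the xenograft, so the zero of this scale is a choice. With that scaling 70 of 73 channel genes were called higher and 0 lower in Kelly at 6 days. The median log2 ratio was then 6.37 for the channel genes and 4.67 for all genes, whose share called is not given here. All log2 ratios below are on the TMM scale, with the medians of all genes given above, unless another scaling is named.

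Sequences around 1 occurrence of GGACT are shown for genes at both ends of this scale and for genes whose ratio changed with STM2457, because GGACT is a common form of the DRACH consensus. Each is the occurrence closest to the stop codon in the canonical transcript, written in the sense of the mRNA with GGACT in capitals and 10 bases on either side (GRCh38). Genes high in RIP over input come first, then genes whose ratio fell with STM2457, then CACNA2D2, which was low in RIP.
KCNQ5 (chr6:73195316-73195340, plus strand, coding): gactctctaaGGACTggaaggtcac
KCNJ4 (chr22:38426464-38426488, minus strand, 3′ UTR): gaaggtggctGGACTgctgggcggg
KCNK10 (chr14:88185500-88185524, minus strand, 3′ UTR): cattggtcttGGACTgagcgttgtg
CACNB1 (chr17:39174037-39174061, minus strand, 3′ UTR): gtgccaacaaGGACTggggcctgcc
CACNG4 (chr17:67031752-67031776, plus strand, 3′ UTR): cccactgactGGACTtcagagtctg
KCNK3 (chr2:26728907-26728931, plus strand, 3′ UTR): ccttcggaggGGACTtcatgttccg
CACNB3 (chr12:48827820-48827844, plus strand, coding): ttctagcccaGGACTcagagcacaa
KCNJ8 (chr12:21765051-21765075, minus strand, 3′ UTR): gtctcatttaGGACTgggttcccca
KCNN1 (chr19:17998384-17998408, plus strand, coding): tggccccctcGGACTgcgggtgacg
CACNA2D2 (chr3:50364030-50364054, minus strand, 3′ UTR): gatggaaactGGACTcacattcgac
The word stands in genes at both ends. CACNA2D2, among the lowest, holds 12 copies in its transcript, and CACNB1, among the highest, holds 1. KCNAB3, also low in Kelly, holds 0, as does KCNG1, which had a high log2 ratio of 2.79 in Kelly at 1 day. Over the channel genes, the Spearman correlation of the ratio with copies was 0.01 in Kelly at 1 day. It was -0.08 in Kelly at 6 days and -0.18 in NGP. For all genes these correlations were 0.20, 0.22 and 0.10. The median channel transcript of at least 1 CPM in Kelly cells at 1 day held 5 copies, and the median transcript of all genes 3. Per kilobase the medians were 0.969 and 0.921. At least 1 copy stood in 95.8% of the channel transcripts of at least 1 CPM in Kelly cells at 1 day and in 91.7% of all such transcripts.

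The genes of the classes lay at different places on this scale. Inward rectifiers were at least 2-fold higher in RIP for 6 of 7 genes in Kelly at 1 day (median log2 ratio 1.70), 5 of 6 at 6 days (2.27) and 3 of 7 in NGP (1.38), and none was called lower. Their transcripts have 1 to 4 exons, and all genes with at most 3 exons had a median of 1.71 in Kelly at 1 day, with 61.6% called higher. Sodium channel alpha subunits were higher for 5 of 6 (1.44), 6 of 7 (1.91) and 5 of 6 genes (1.75) in the same order, again with none lower, and have 24 to 30 exons. Two-pore-domain channels were higher for 4 of 8 genes at both Kelly times, with medians of 1.42 and 1.76, and for 0 of 6 in NGP, with a median of 0.01. Voltage-gated potassium pores were higher for 9 of 23 and lower for 1 at 1 day, 13 of 22 and 1 at 6 days, and 7 of 23 and 4 in NGP. The alpha2delta subunits lay at the other end, with 3 of 3 lower at 1 day (median -2.81), 1 of 4 at 6 days (-1.05) and 1 of 2 in NGP (-1.08). Differences between classes were not tested.

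**Figure D3:**
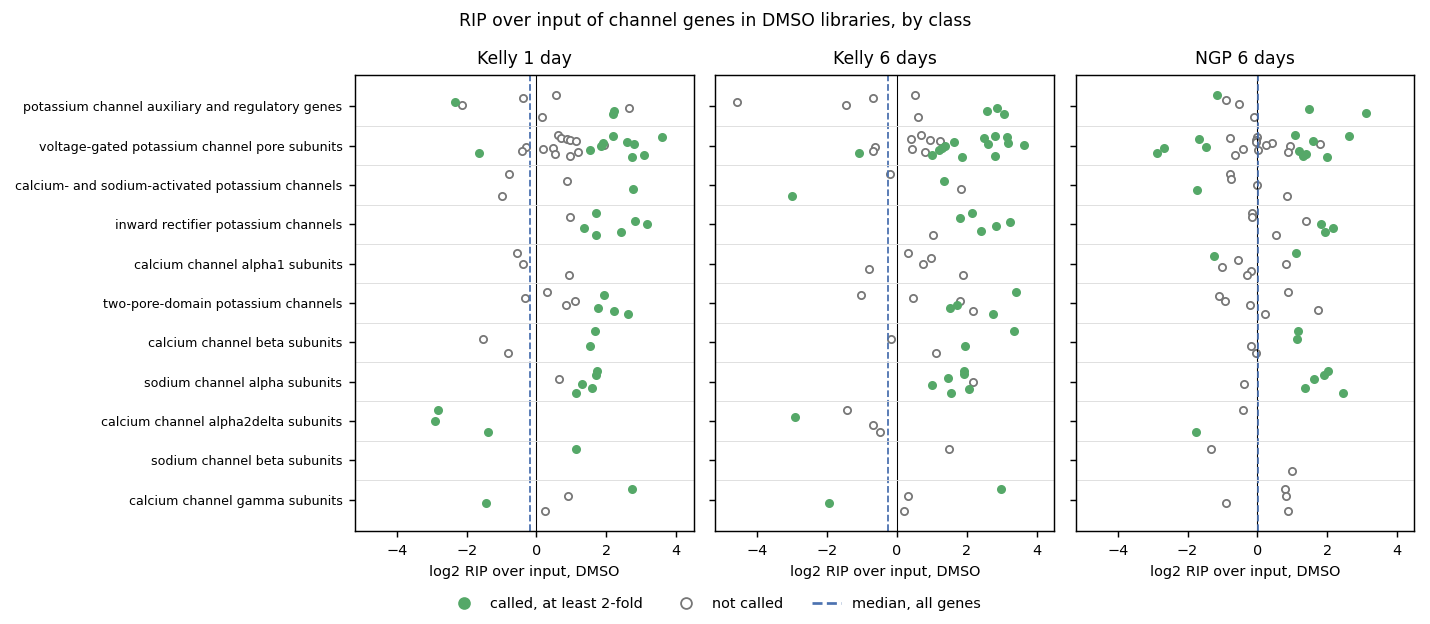
Log2 ratio of RIP over input with DMSO for each channel gene of at least 1 CPM (points, filled where called at 2-fold or more), by class (rows) in the 3 culture experiments (panels), with the median of all genes as a dashed line. Inward rectifiers and sodium channel alpha subunits lie mostly to the right of 0 and alpha2delta subunits to the left.

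Single genes lay far from these medians. In Kelly cells at 1 day KCNB2, a delayed rectifier pore, held 6.27, 5.55 and 6.44 CPM in the inputs and 66.2, 70.5 and 74.3 CPM in RIP, a log2 ratio of 3.59 (SE 0.17, adjusted p = 6.6e-10). KCNQ5 held 18.6, 20.3 and 20.5 CPM in input and 160.1, 157 and 169 CPM in RIP, with a ratio of 3.09 (SE 0.08, adjusted p = 4.9e-12). In both genes each RIP library lay far above each input. KCNJ4 held 2.22, 3.40 and 3.61 CPM in input and 22.8, 29.2 and 27.0 CPM in RIP, with a ratio of 3.16 (SE 0.28, adjusted p = 4.1e-07). At 6 days the highest ratios were those of KCNG3, a silent pore subunit, at 3.63 (SE 0.63, adjusted p = 0.00035), KCNK10, the mechanosensitive leak channel TREK-2, at 3.42 (SE 0.31, adjusted p = 1.5e-06), and CACNB1 at 3.36 (SE 0.23, adjusted p = 1.5e-07). CACNB1 stood at 50.7, 51.2 and 50.6 CPM in input and 656, 568 and 394 CPM in RIP, with no overlap. CACNG4 was the 1 call in the xenograft, with 135 and 133 CPM in input and 646 and 795 CPM in RIP, a ratio of 2.46 (SE 0.54, adjusted p = 0.043). That call was lost without DMSO replicate 1 (adjusted p = 0.33) or without DMSO replicate 2 (adjusted p = 0.63). In Kelly at 1 day CACNG4 held 796, 807 and 847 CPM in RIP, with a ratio of 2.74 (SE 0.07, adjusted p = 3.3e-12).

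In NGP KCNB2 again lay high, with 30.2, 20.9 and 16.3 CPM in input and 214, 129 and 103 CPM in RIP, a ratio of 2.62 (SE 0.25, adjusted p = 1.6e-08). KCNMB3, a regulatory subunit of the large-conductance calcium-activated channel, held 4.34, 2.51 and 3.28 CPM in input and 29.1, 33.3 and 32.8 CPM in RIP. Its ratio was 3.11 (SE 0.34, adjusted p = 8.3e-08), and it shares exon sequence with PIK3CA on the other strand, so without strand its fragments cannot be told from those of PIK3CA. SCN9A, a sodium channel pore of sympathetic and sensory neurons, had a ratio of 2.46 (SE 0.61, adjusted p = 0.0015) in NGP, and of 1.65 with the GC offset.

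At the low end, CACNA2D2 (chr3:50362799-50504244, minus strand) was among the most abundant calcium channel transcripts in Kelly inputs. It stood at 98.0, 91.9 and 92.7 CPM in input and 13.6, 10.8 and 11.99 CPM in RIP at 1 day, and at 163, 158 and 152 CPM in input and 26.6, 15.8 and 22.1 CPM in RIP at 6 days. In NGP it held 63.4, 59.1 and 53.6 CPM in input and 20.3, 16.6 and 18.9 CPM in RIP. RIP lay below input in every library, with ratios of -2.90 (SE 0.22, adjusted p = 6e-08), -2.91 (SE 0.24, adjusted p = 6.1e-07) and -1.75 (SE 0.19, adjusted p = 9.4e-08). With mitochondrial scaling the sign turned at 6 days, as it did for KCNT2. In NGP the ratio of CACNA2D2 became -0.97 with that scaling, short of 2-fold, and -1.07 with the GC offset. CACNA2D2 overlaps Z84492.2 on the other strand. CACNA2D1, its paralogue, had 26.8, 31.7 and 38.6 CPM in input and 2.50, 6.82 and 3.98 CPM in RIP at 1 day, a ratio of -2.81 (SE 0.67, adjusted p = 0.0021), which was not called with mitochondrial scaling (adjusted p = 0.10). KCNAB3 had a ratio of -2.34 (SE 0.69, adjusted p = 0.011) at 1 day, which became -0.69 (adjusted p = 0.43) with mitochondrial scaling. It also missed the threshold when DMSO replicate 2 (adjusted p = 0.087) or DMSO replicate 3 (adjusted p = 0.079) was dropped. At 6 days KCNAB3 had the lowest ratio of the channel genes, -4.59, which was not called. KCNT2, a sodium-activated potassium channel, held 7.12, 9.08 and 7.86 CPM in input and 0.738, 1.97 and 0.380 CPM in RIP at 6 days, a ratio of -3.02 (SE 0.73, adjusted p = 0.0035) that became -2.24 with the GC offset. In NGP KCNH3, a voltage-gated potassium pore subunit that overlaps MCRS1 on the other strand, had a ratio of -2.68 (SE 1.02, adjusted p = 0.029). It was lost without DMSO replicate 1 (adjusted p = 0.062) or without DMSO replicate 2 (adjusted p = 0.26), with mitochondrial scaling (-1.94, adjusted p = 0.13) and with the GC offset (-1.51, adjusted p = 0.20). KCNH2 had a ratio of -1.46 (SE 0.19, adjusted p = 6.5e-07) in NGP, which became -0.28 (adjusted p = 0.13) with the GC offset and -0.65 (adjusted p = 0.086) with mitochondrial scaling.

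The number of exons went with this ratio across all genes, and the channel genes were set beside all genes of like exon number. With at most 3 exons, 19 channel genes in Kelly at 1 day had a median log2 ratio of 2.18, with 12 called higher and 0 lower, beside a median of 1.71 and 61.6% called higher among all 1521 such genes. With 4 to 10 exons, 21 channel genes had a median of 1.13, with 9 higher and 1 lower, beside -0.15 and 29.7%. With 11 or more exons, 31 had a median of 0.47, with 10 higher and 5 lower, beside -0.72 and 16.9%. At 6 days the medians of the channel genes were 2.18, 1.52 and 0.80 and those of all genes 1.71, -0.29 and -0.77. In NGP they were 0.48, -0.00 and -0.18 beside 0.62, 0.04 and -0.14. The Kelly channel genes lay above the median of all genes in each exon class. The NGP values by exon class are without an offset for GC content. Across genes, the Spearman correlation of the ratio with exons per kilobase was -0.42 over the channel genes and -0.50 over all genes in Kelly at 1 day, where all points share 6 libraries. The correlation with GC content was 0.003 in Kelly at 1 day, 0.009 at 6 days and -0.59 in NGP over the channel genes, and 0.05, 0.09 and -0.51 over all genes. Channel transcripts were longer, with a median of 4717 bases beside 3492 for all genes in Kelly at 1 day.

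With STM2457 the ratio of RIP over input changed for 8 of 71 channel genes in Kelly at 1 day, 2 up and 6 down, where 10.5% of all genes of at least 1 CPM rose and 7.64% fell. Scaled on the mitochondrial mRNAs, 45 fell and 0 rose after 1 day, and 26 fell and 0 rose after 6 days. The share of all genes that fell with that scaling is not given here. That scaling moved most genes down. The median change over all genes of at least 1 CPM was then -1.45 at 1 day and -1.93 at 6 days, beside -1.69 and -2.06 over the channel genes. Leaving out DMSO replicate 1, 2 or 3 gave 4 calls each time at 1 day. At 6 days 0 of 73 were called (2.11% of all genes), although DESeq2 called 5 falls and 9 passed an unadjusted p of 0.05, and 3 were called without treated replicate 1. In NGP 0 of 72 were called (0% of all genes), DESeq2 called 0, and 7 passed an unadjusted p of 0.05. In the xenograft 0 of 71 were called (0% of all genes), while DESeq2 called 3 falls and 5 passed an unadjusted p of 0.05. On simulated counts with the spread of these data, the edgeR fit recovered 1.96% of 2-fold changes of the ratio in Kelly at 6 days. It recovered 15.6% in NGP and 0% in the xenograft, so a count of 0 does not show that ratios stayed the same. The 6 falls included genes whose input rose. KCNK3 held 230.4, 186 and 196 CPM in RIP with DMSO and 169, 128 and 147 CPM with STM2457, while its input rose as given above. The change of its log2 ratio was -0.85 (SE 0.15, adjusted p = 0.0021) at 1 day and -0.71 (SE 0.19, adjusted p = 0.072) at 6 days. CACNB3 held 148, 153 and 158 CPM in RIP with DMSO and 101, 102 and 105 CPM with STM2457, without overlap. Its ratio changed by -0.81 (SE 0.11, adjusted p = 0.0004).

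KCNJ8 stood at 164, 163 and 181 CPM in RIP with DMSO and 166, 108 and 139 CPM with STM2457 at 1 day, which overlapped. Its log2 ratio changed by -0.74 (SE 0.18, adjusted p = 0.015), and the call was lost without DMSO replicate 1 (adjusted p = 0.067), without DMSO replicate 2 (adjusted p = 0.062), without DMSO replicate 3 (adjusted p = 0.10) or without treated replicate 3 (adjusted p = 0.051). At 6 days the RIP libraries held KCNJ8 at 167, 162 and 188 CPM with DMSO and 121, 66.8 and 61.0 CPM with STM2457, all treated libraries lower, with a change of -1.27 (SE 0.31, adjusted p = 0.057) that was not called. KCNN1 held 21.7, 20.5 and 17.9 CPM in RIP with DMSO and 4.84, 7.29 and 12.2 CPM with STM2457 at 1 day, and its ratio changed by -1.74 (SE 0.44, adjusted p = 0.016). That call was lost without DMSO replicate 1 (adjusted p = 0.10), without DMSO replicate 2 (adjusted p = 0.075) or without DMSO replicate 3 (adjusted p = 0.079). At 6 days KCNN1 stood at 87.5, 90.2 and 92.7 CPM in RIP with DMSO and 10.8, 31.1 and 26.0 CPM with STM2457, far apart, and the change of -1.51 (SE 0.46, adjusted p = 0.12) was not called. KCNK5, the two-pore-domain channel TASK-2, had a change of -0.71 (SE 0.22, adjusted p = 0.043) at 1 day, lost with RLE factors (adjusted p = 0.064), without a filter on low counts (adjusted p = 0.12), without DMSO replicate 1 (adjusted p = 0.10), without DMSO replicate 2 (adjusted p = 0.14), without DMSO replicate 3 (adjusted p = 0.19), without treated replicate 1 (adjusted p = 0.062) or without treated replicate 3 (adjusted p = 0.094). KCNAB3 held 1.16, 0.765 and 0.773 CPM in RIP with DMSO and 0, 0 and 0 CPM with STM2457 at 1 day. Against a floor of 3 counts per library its ratio of RIP over input fell at least 3.24-fold, from 0.188 to at most 0.0582. That ratio is of mean CPM, without TMM factors.

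The rises were KCNQ5 and KCNIP4. KCNQ5 held 160.1, 157 and 169 CPM in RIP with DMSO and 264, 296 and 266 CPM with STM2457 at 1 day, while the input of 18.6, 20.3 and 20.5 CPM with DMSO and 22.5, 22.3 and 21.0 CPM with STM2457 was not called. The RIP groups were far apart, and the ratio changed by 0.71 (SE 0.11, adjusted p = 0.00083). At 6 days the RIP libraries of KCNQ5 held 51.2, 67.4 and 49.3 CPM with DMSO and 125, 115 and 125 CPM with STM2457, and the change of 0.79 (SE 0.29, adjusted p = 0.19) was not called. KCNIP4 held 47.4, 54.7 and 53.9 CPM in RIP with DMSO and 55.4, 60.9 and 60.1 CPM with STM2457, and its ratio changed by 0.83 (SE 0.25, adjusted p = 0.036). That call was lost without DMSO replicate 1 (adjusted p = 0.065), without DMSO replicate 2 (adjusted p = 0.12), without DMSO replicate 3 (adjusted p = 0.061), without treated replicate 1 (adjusted p = 0.058) or without treated replicate 3 (adjusted p = 0.096). Scaled on mitochondrial mRNAs, where the median of all genes moved by -1.44, both rises turned into changes of -0.73 and -0.61.

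**Figure D4:**
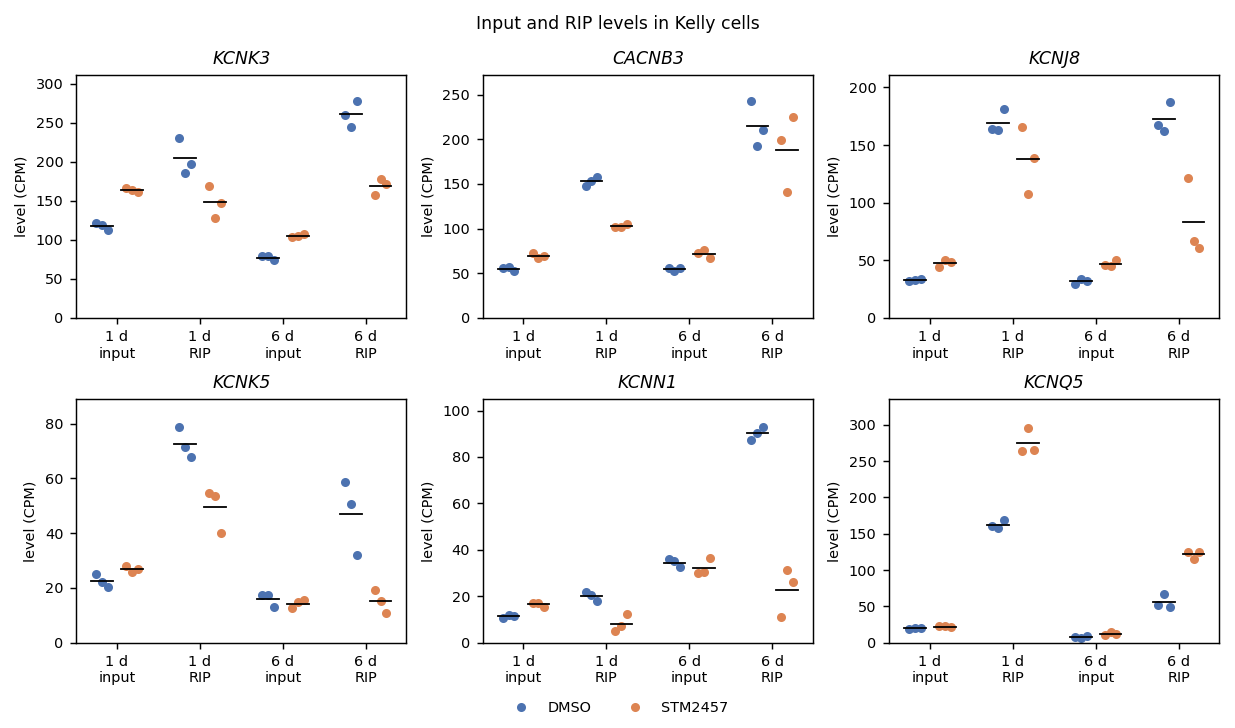
Input and RIP level in CPM of 6 genes whose ratio of RIP over input changed in Kelly cells at 1 day, for each library (points) with the group mean (bars), at 1 and 6 days with DMSO and STM2457. For KCNK3 and CACNB3 at 1 day the treated libraries lie above DMSO in input and below DMSO in RIP, and for KCNQ5 they lie above in RIP.

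The level of channel genes with DMSO was compared between NGP and Kelly cells at 6 days in 1 fit of both. Of 80 genes tested, 19 were at least 2-fold higher in NGP and 30 at least 2-fold lower, where 14.4% and 17.7% of all genes of at least 1 CPM were. The 2 lines were grown in separate experiments, so line and experiment cannot be told apart. At 1 CPM, 61 genes were reached in both lines, 12 in Kelly alone and 12 in NGP alone. Higher in NGP were KCNG1 by 1.51 (SE 0.08) on the log2 scale, from 108, 106 and 112 CPM in Kelly to 363, 339.8 and 355 CPM in NGP, and KCNB2 by 2.57 (SE 0.31). KCNQ3, a subunit of M-type channels, was at 0 in the Kelly DMSO inputs. Against a floor of 3 counts per library it was at least 19.7-fold higher in NGP. CACNA1A, the P/Q-type calcium pore, held 7.06, 23.6 and 8.36 CPM in NGP and 0.248, 0 and 0 CPM in Kelly.

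Higher in Kelly were KCNJ12, with a log2 ratio of NGP over Kelly of -3.83 (SE 0.18), KCNC4 with -2.50 (SE 0.18), KCNK3 with -1.62 (SE 0.10) and CACNA2D2 with -1.62 (SE 0.09). KCNK5 held 17.2, 17.4 and 13.1 CPM in Kelly and 0, 0 and 0 in NGP, at least 43.2-fold higher in Kelly. SCN4A, KCNA2 and KCNK2 were at 0 in the NGP DMSO inputs as well, at least 14.6-fold, 13.5-fold and 4.84-fold higher in Kelly. KCNJ4 stood at 12.2, 11.4 and 14.4 CPM in Kelly and 0.0905, 0 and 0 CPM in NGP.

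**Figure D5:**
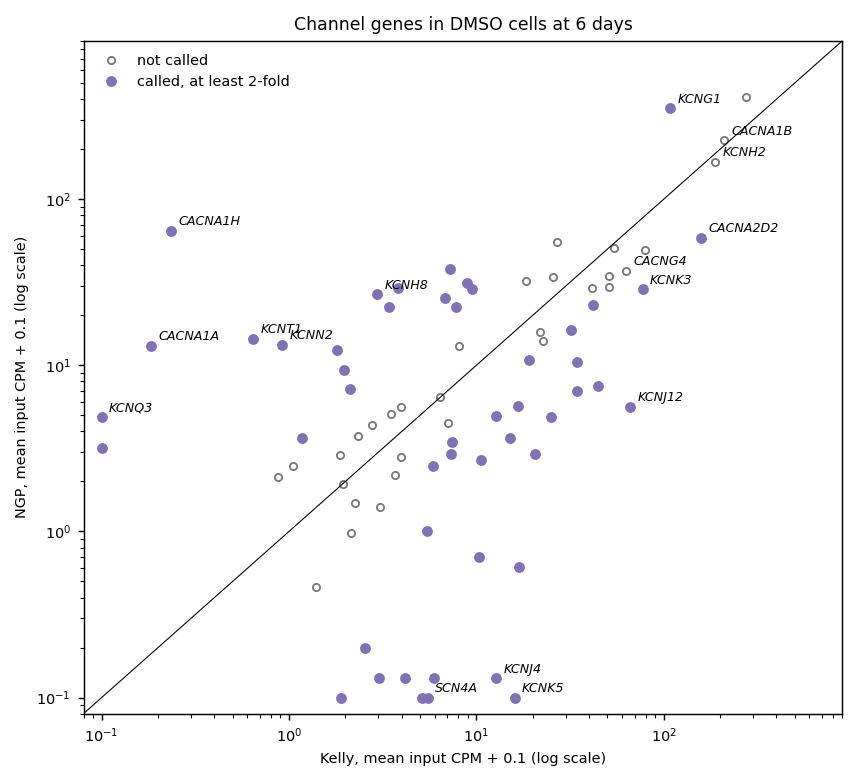
Mean input level with DMSO in Kelly cells (horizontal axis) and NGP cells (vertical axis) at 6 days for the channel genes tested, both as CPM plus 0.1 on log axes, filled where at least 2-fold apart at an adjusted p under 0.05, with the diagonal of equal levels. KCNG1 and CACNA1H lie above the diagonal, and KCNJ12, KCNK3 and KCNK5 lie below it.

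The ratio of RIP over input, on the TMM scale, also differed between the lines. A fit of both sets of DMSO libraries, chosen after the data had been seen, called 3 of 61 channel genes higher and 26 lower in NGP than in Kelly at 6 days, where 27.2% and 24.9% of all genes of at least 1 CPM in both were. The median difference was -1.004 for the channel genes and 0.11 for all genes. CACNG4 differed by -2.37 (SE 0.27, adjusted p = 1.4e-05), KCNG1 by -2.36 (SE 0.33, adjusted p = 5.7e-05), CACNB1 by -2.38 (SE 0.34, adjusted p = 5.8e-05), CACNB3 by -2.30 (SE 0.32, adjusted p = 5.5e-05) and KCNK3 by -2.10 (SE 0.33, adjusted p = 0.00012), all lower in NGP. KCNT2, whose levels in Kelly RIP given above were low, was higher in NGP, by 3.69 (SE 0.61, adjusted p = 0.0002). This fit was not run with mitochondrial scaling, which moved the median gene by 4.92 in Kelly at 6 days and by 0.77 in NGP. The size and sign of each gene's difference between the lines therefore rest on the TMM scale. With an offset for the GC content of transcripts the counts were 5 higher and 28 lower, and the medians were -1.01 and -0.21. The difference became -0.84 for KCNG1, -1.39 for CACNB3, -1.67 for CACNB1 and 1.91 for KCNT2, each still called. Leaving out 1 replicate at a time, its input and RIP library together, gave between 24 and 29 calls.

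Genes that work with these channels were read from 2 lists. The partner list held 39 anchors, trafficking factors, accessory proteins and other cation channels. In Kelly at 1 day 0 of 25 rose and 2 fell, the endolysosomal channel gene TPCN1 by a log2 change of -0.61 and FGF11, of the sodium channel binding FGF family, by -0.27. At 6 days 8 of 27 rose and 3 fell. The rises were FGF14 (1.03) and the anchors AKAP5 (1.01) and ANK2 (0.73), as well as SCNN1D (0.90), RIMBP2 (0.70), DPP6 (0.48), NEDD4L (0.46) and UNC79 (0.39), each as a log2 change. The falls were TPCN1 (-0.43), FGF11 (-0.45) and HCN2 (-0.32), the last a hyperpolarisation-activated channel. In NGP 2 of 26 rose, AKAP5 (1.40) and RIMBP2 (0.78), and 0 fell. In the xenograft 0 of 23 were called.

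The other list held 27 genes, among them ion pumps and transporters, which keep the gradients that the channels use. It also held intracellular calcium release channels such as ITPR1. In Kelly at 1 day 3 of 21 rose and 0 fell: the calcium pump gene ATP2B4 (0.40), the sodium-calcium exchanger gene SLC8A1 (0.28) and the sodium pump subunit gene ATP1B1 (0.22). At 6 days 5 of 21 rose, among them SLC8A3 (0.71), SLC8A1 (0.59) and ITPR1 (0.45), and 2 fell, the potassium-chloride cotransporter genes SLC12A4 (-0.65) and SLC12A7 (-0.19). In NGP 0 of 22 rose and 2 fell, the calcium pump genes ATP2B2 (-1.27) and ATP2B3 (-0.85). In the xenograft 0 of 18 were called. Over all genes of at least 1 CPM the shares called in either direction were those given above, 18.6%, 27%, 4.26% and 0%.

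The genes that rose in Kelly cells at both times were last looked at for their promoters. RefSeq promoters (GRCh38.p14, 250 bases before to 50 after the start) were given for 98 of the 137 genes and for 6 of the 8 that rose at both times. The word GGGCGG, on either strand, stood in all 6, in 61.2% of the 98 and in 44.6% of all 27305 promoters. It is made of G and C alone, and the median GC content of the windows was 64.8% over the 98 and 58.3% over all. The part of GC content in these shares was not tested. The word CACGTG stood in 0 of the 6, in 5.10% of the 98 and in 7.43% of all. The promoter of KCNJ8 is shown because the gene rose in all 3 culture experiments. That of KCNK3 is shown because it held the most copies of GGGCGG among those counted, 7 beside 4 in KCNJ8. Copies were not counted for KCNH2. GGGCGG and its reverse complement are in capitals.
KCNK3 (chr2:26692472-26692771, plus strand): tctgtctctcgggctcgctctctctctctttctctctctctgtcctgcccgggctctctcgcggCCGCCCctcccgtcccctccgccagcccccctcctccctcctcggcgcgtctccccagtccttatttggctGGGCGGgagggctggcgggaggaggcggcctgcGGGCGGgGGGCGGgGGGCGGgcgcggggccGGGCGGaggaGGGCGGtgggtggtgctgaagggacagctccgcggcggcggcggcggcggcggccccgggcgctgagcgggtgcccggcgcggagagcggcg
KCNJ8 (chr12:21774657-21774956, minus strand): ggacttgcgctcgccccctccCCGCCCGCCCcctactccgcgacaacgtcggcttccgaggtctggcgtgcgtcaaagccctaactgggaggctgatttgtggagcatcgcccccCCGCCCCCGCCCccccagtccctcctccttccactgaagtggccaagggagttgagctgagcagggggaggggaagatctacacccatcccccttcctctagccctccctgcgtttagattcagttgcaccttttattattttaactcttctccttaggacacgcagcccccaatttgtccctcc
These words describe the windows and were not tested against the response.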

How the data were processed

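Each of the 44 libraries has a table of raw counts of fragments, as the authors deposited them. FeatureCounts 1.5.3 counted pairs over exons of protein-coding genes of GENCODE 33 (GRCh38), per the file headers, with no option for strand or overlapping genes. The submitters' processing notes name HISAT2 2.1.0 and Trimmomatic 0.36. Spike-in RNA was added per the labels' protocols and was not analysed here. CPM and RPKM (exon length of the count tables) were computed here.

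Tests used edgeR 4.0.16 in R 4.3.3 on the counts as deposited: TMM factors, filterByExpr (10 counts, 15 in total), quasi-likelihood fits per experiment and Benjamini-Hochberg adjustment over all genes tested. Input changes were called at an adjusted p under 0.05, and ratios of RIP over input also needed 2-fold. The scripts were tested on simulated data. No pair of replicates was as close as sampling noise. The rule for named genes took the leading level of each class, genes called in 2 culture experiments, up to 5 input changes per experiment whose arms did not overlap, the 3 highest and 3 lowest ratios of RIP over input, up to 3 changes of that ratio and differences of response, and up to 4 genes each way between NGP and Kelly. Other called genes were named after their values were seen, and some genes are counted but not reported by name here. Members, lists and this rule were chosen with earlier results of these data known. Alternatives were DESeq2 1.42.0, RLE factors, no filter, replicate blocks, all inputs in 1 fit, mitochondrial scaling and a GC offset (added after seeing the data). Others were a minimum of 5 CPM, TPM in place of RPKM, and each replicate left out. In fits with RIP libraries, a replicate left out meant its input and RIP library together. Sequences came from GENCODE 44 canonical transcripts (136 of 137 genes) and RefSeq promoters.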

Additional observations from a re-analysis of the deposited data

Results flagged for a closer look

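Responses to STM2457 that differed between experiments, by edgeR's quasi-likelihood test of the difference, were singled out. For the later against the earlier Kelly time these were SCN8A, with a difference of 0.44 (SE 0.11, adjusted p = 0.014), CACNG5, with -1.18 (SE 0.29, adjusted p = 0.011), KCNN1, with -0.71 (SE 0.14, adjusted p = 0.0022), and KCNJ14, with 2.80 (SE 0.78, adjusted p = 0.026). KCNN1 rose at 1 day and was not called at 6 days, where its means with DMSO and STM2457 were 34.4 and 32.2 CPM. KCNJ14 had means of 0.134 and 1.49 CPM at 6 days, from few fragments, and overlaps GRWD1 and AC008403.1 on its own strand. Between Kelly and NGP cells at 6 days the differences were CACNG4, with 0.94 (SE 0.17, adjusted p = 0.0060), and KCNIP4, with -5.12 (SE 1.07, adjusted p = 0.019). CACNG4 rose in Kelly and stood lower in every treated NGP library than in every NGP DMSO library. KCNIP4 had means of 5.84 and 6.46 CPM in Kelly and of 0.0302 and 1.66 CPM in NGP. Kelly and NGP, and the Kelly times, were separate experiments, so the experiment cannot be told apart from the time or the line.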

How the results depend on the processing

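Of 133 calls of named genes, 77 stayed past their threshold in the same direction under every alternative run for them, and 4 turned. With RIP scaled on mitochondrial mRNAs the log2 ratio of RIP over input became 2.06 for CACNA2D2 and 1.42 for KCNT2 in Kelly at 6 days. The change of the ratio became -0.73 for KCNQ5 and -0.61 for KCNIP4. That scaling gave 70 calls of RIP over input in Kelly at 6 days and 0 in the xenograft, and 45 and 26 calls of its change in Kelly at 1 and 6 days. All inputs in 1 fit gave 1, 3, 12 and 12 input calls in the early Kelly, late Kelly, NGP and xenograft experiments. DESeq2 gave 5 input calls in NGP, 8 calls of RIP over input in the xenograft, 5 and 3 calls of its change in Kelly at 6 days and the xenograft, and 6 differences of response between Kelly and NGP. Without a filter there were 6 input calls in NGP and 4 of RIP over input in the xenograft, and the GC offset, chosen after seeing the data, gave 4 there. At 5 CPM, 47 channel genes remained in Kelly at 6 days. Same-numbered replicates did not deviate together over all pairs, so the numbers were not taken to pair the libraries. With the replicate block the calls numbered 8 for NGP inputs, 3 for RIP over input in the xenograft and 4 for its change in Kelly at 1 day. The lists of lost calls by gene above leave out this block and the fit of all inputs. Changes of the ratio lost with the block included KCNN1 (edgeR adjusted p = 0.054), KCNK5 (0.080), KCNIP4 (0.084) and KCNAB3 (0.072). The block also lost the Kelly 6 days input calls of CACNB1 (0.072) and KCNK15 (0.086), and the KCNJ14 difference of response (0.054). For KCNJ14, DESeq2 gave no adjusted p. Leaving out 1 library at a time gave 10 to 18 input calls in Kelly at 1 day, 15 to 25 at 6 days, 2 to 4 in NGP and 0 to 12 in the xenograft. For RIP over input, the input and RIP library of a replicate were left out together. This gave 34 to 41, 32 to 44 and 25 to 29 calls in Kelly at 1 day, Kelly at 6 days and NGP. For the change of that ratio it gave 4 to 10, 0 to 3 and 0 to 0 calls in the same order. With 1 input left out at a time, differences of response numbered 3 to 7 between the Kelly times and 1 to 4 between Kelly and NGP. Differences of level between NGP and Kelly numbered 47 to 52. For the counts in this section the shares of all genes called are not given. Except where the report gives one, the cause of these shifts was not tested. The shallowest input, in the xenograft, held 2.145 M counts.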

Other observations

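Levels of some genes differed between libraries of 1 group. In the xenograft KCNJ8 held 3.95 and 13.9 CPM in the vehicle inputs and 7.21 and 19.6 CPM in the treated inputs, and KCNK3 held 73.9 and 96.4 CPM with vehicle and 95.9 and 156 CPM with STM2457. KCNC4 stood at 38.8 and 38.2 CPM with vehicle and 35.1 and 17.7 CPM with STM2457 there. In NGP the treated libraries of KCNC4 held 21.7, 10.0 and 11.6 CPM.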
